A study of Homo sapiens with 4 samples.

Results

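The genes described here are 52 ribosome biogenesis factors, chosen by name and grouped by the step they serve: transcription of ribosomal RNA by RNA polymerase I, the small nucleolar ribonucleoproteins (snoRNPs) that modify and fold that RNA, assembly of the small subunit, assembly of the large subunit, and nucleolar proteins that act at several steps. The choice was made with earlier results of these data known. Counts set beside all probe sets below therefore describe the list and do not test it. A named probe set was found for 45 of the 52, out of 17687 genes named on the array, and each of the 45 had 1 probe set. The other 7 (TAF1D, NOP56, DKC1, WDR43, BOP1, PPAN and GNL3) match no probe set by name and are not analysed here. RNA was taken from K562, a human chronic myeloid leukemia line that makes hemoglobin when given hemin, and measured on 4 Human Clariom S arrays, which report the RNA of each gene as a log2 intensity in 1 colour. The 2 arrays at 0 h held untreated cells, and the 2 arrays at 24 h held cells kept for 24 h in 50 µM hemin, an oxidized form of heme. The comparison asks how these genes differ between the 2 states. As no untreated culture was followed to 24 h, an effect of hemin and an effect of the added day cannot be told apart. The labels call the arrays biological replicates without saying whether each came from its own culture, and the p-values therefore measure only the spread between these arrays, which may be technical.

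Ribosomes are built in the nucleolus. RNA polymerase I makes a long precursor that carries most of the ribosomal RNAs, snoRNPs guide its methylation and pseudouridylation, and a large set of helicases, GTPases, kinases, nucleases and scaffold proteins folds and cuts it while ribosomal proteins join. The small subunit is assembled first on a large particle called the SSU processome, the large subunit on separate precursors, and both are finished in the cytoplasm. Growing cells spend much of their transcription on this work, and red cell precursors make large amounts of ribosomes before they lose the nucleolus.

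Most ribosome biogenesis factors had lower RNA levels at 24 h of hemin than at 0 h, although no single factor passed the adjusted threshold. Each of the 5 groups had a median below 0, from -0.84 in the small subunit factors to -0.10 in the proteins that act at several steps. The fitted log2 fold change, 24 h minus 0 h, was below 0 for 44 of the 45 factors, with a median of -0.61. Over all 20893 probe sets tested, 11511 were below 0 and the median was -0.06. The median level of the 45 factors was 11.45 and 11.28 at 0 h and 10.73 and 10.68 at 24 h, so the 2 time points did not overlap, while the array medians over all probe sets ran from 6.10 to 6.24. Both arrays at 24 h lay below both arrays at 0 h for 36 of the 45 factors, compared with 24.9% of all probe sets. No factor showed the opposite order, which 3925 of the 20893 probe sets showed. At an unadjusted p under 0.05 in limma, 20 of the 45 (44.4%) were lower and 0 were higher. Over all probe sets the same shares were 6.62% lower and 6.28% higher, and 8.79% were lower among the 11491 probe sets brighter than 5.70, a level that 95% of the 348 olfactory receptor genes do not reach (the dim line). All 45 factors had every array above that line.

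None of the 45 factors passed a Benjamini-Hochberg adjusted p of 0.05 over all probe sets in limma. The smallest adjusted p was 0.059, for POLR1G. On the whole array 0.12% of the probe sets passed as lower and 0.823% as higher, so a count of 0 among 45 is close to that background. When the variance was modelled with a trend over brightness and robust settings, 8 factors passed as lower and 0 as higher, against 0.761% of all probe sets passing as lower. The methods' ANOVA per probe set gave 21 factors, all lower, at an unadjusted p under 0.05 and 0 after adjustment. At that unadjusted p, 1071 of all 20893 probe sets were lower. Leaving out replicate 1 or replicate 2 of 24 h reduced the count of 20 to 10 or 13, and leaving out replicate 1 or replicate 2 of 0 h reduced it to 14 or 16. Ranked by the highest value in any of these 4 fits, POLR1E, POLR1F, POLR1G, WDR12, NOP16, NIP7 and RRS1 were the lowest of the factors. Those highest log2 fold changes ran from -1.41 (POLR1G) to -1.02 (POLR1E). Within a single fit other factors could be lower, as UTP20 was at -1.74 without replicate 2 of 0 h. The share of all probe sets that stayed as low was not computed.

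**Figure D1:**
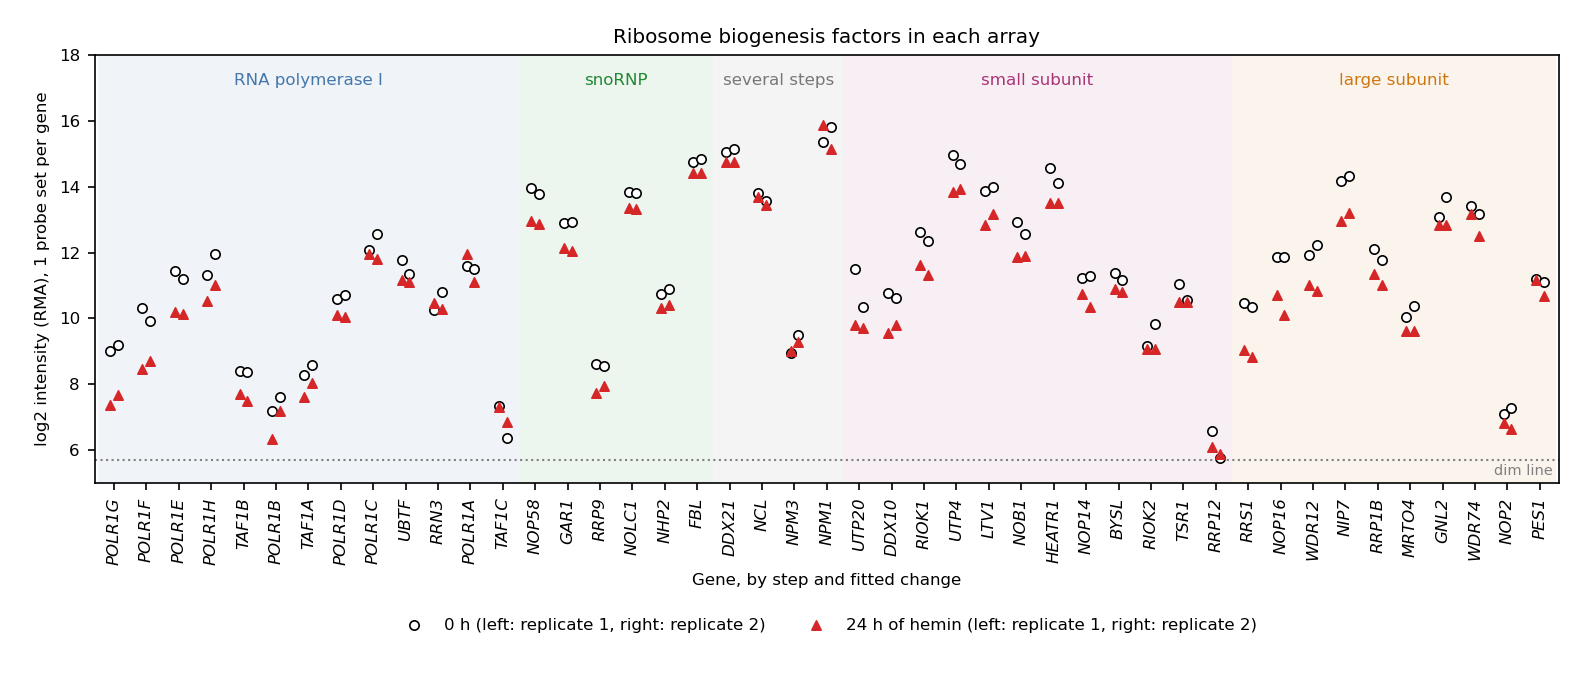
Log2 intensity (y axis) of each of the 45 measured ribosome biogenesis factors (x axis, grouped by step and ordered by fitted change) in the 2 arrays at 0 h (open circles) and the 2 arrays at 24 h of hemin (red triangles), with replicate 1 left and replicate 2 right. For 36 of the 45 factors both triangles lie below both circles, and all values lie above the dotted dim line at 5.70.

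**Figure D2:**
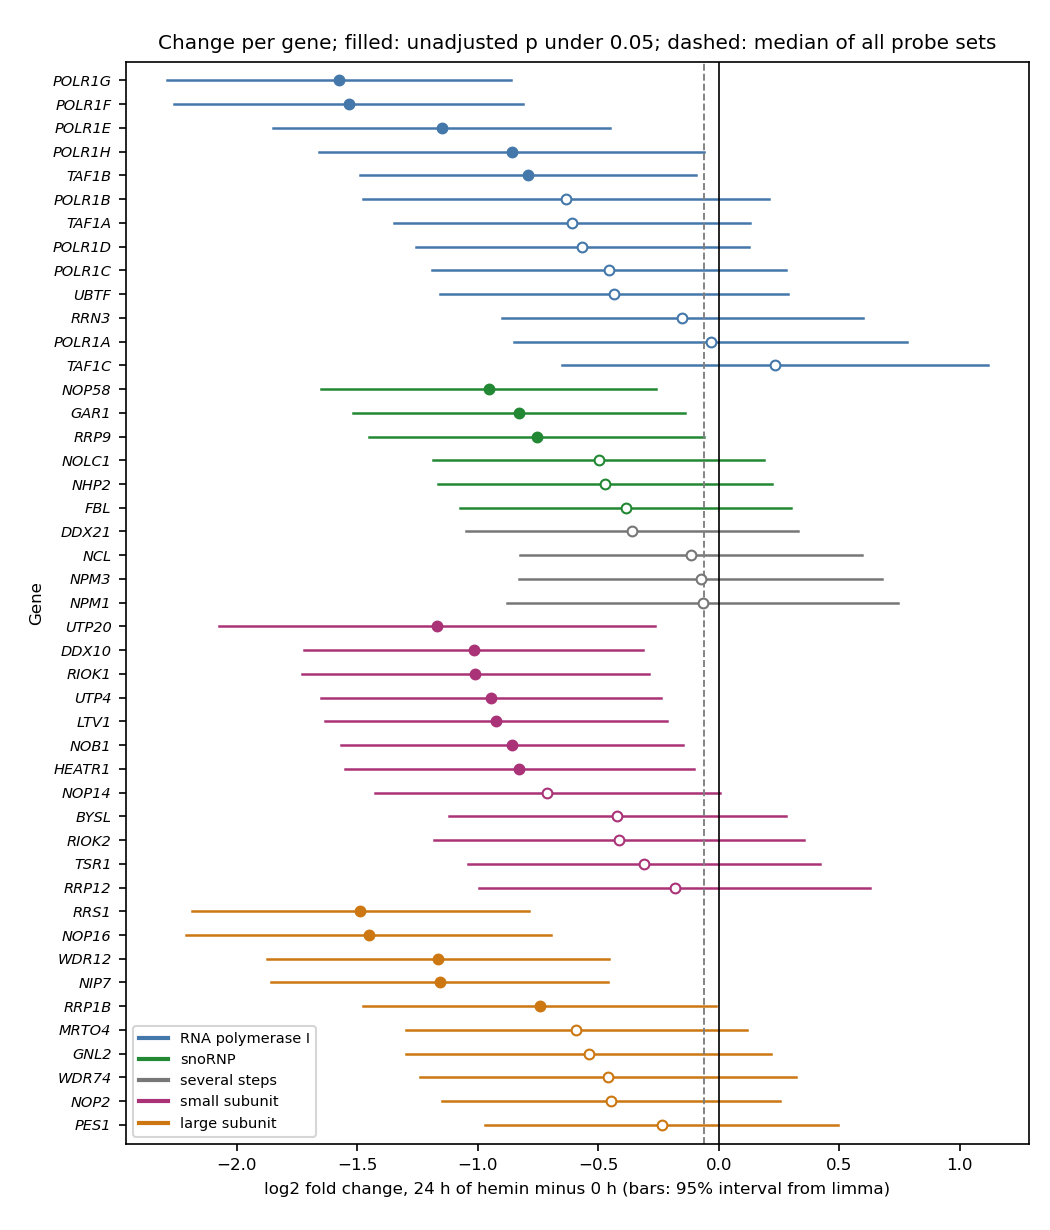
Fitted log2 fold change, 24 h of hemin minus 0 h (x axis), of each factor (y axis) with its 95% interval from limma, coloured by step and filled where the unadjusted p was under 0.05. A total of 44 of the 45 points lie left of 0, and the dashed line marks the median of all probe sets, -0.06.

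The 4 arrays were alike, with a Pearson correlation over all probe sets of 0.982 between the arrays at 0 h, 0.988 between the arrays at 24 h and 0.972 to 0.979 across the time points. Of 10 erythroid and K562 markers 7 were measured, all above the dim line in all 4 arrays, with a summed linear intensity, mostly of globins, of 350900 to 392600 at 0 h and 431600 to 502000 at 24 h. The epsilon globin HBE1 was at 16.22 and 16.09 and then at 16.97 and 17.16. The erythroid transcription factors did not share a direction. GATA1 (14.09 and 13.87, then 12.96 and 12.92) and KLF1 (9.33 and 9.15, then 8.86 and 8.73) were lower at 24 h without overlap. TAL1 (10.62 and 9.47, then 10.70 and 11.03) was higher without overlap, with a log2 fold change of 0.82 (limma adjusted p 0.45). The log2 fold changes of HBE1, GATA1 and KLF1 were 0.91, -1.04 and -0.45, with limma adjusted p of 0.25, 0.18 and 0.60, and of 0.016 for HBE1 and 0.033 for GATA1 with the trend and robust variance. Of 19 measured markers of T cells, B cells, monocytes, epithelium and fibroblasts, 8 stayed below the dim line throughout, among them KRT5, KRT14 and CDH1. The other 11 did not. Among these, the monocyte marker LYZ was at 11.33 to 12.32 and the fibroblast marker COL1A2 at 8.42 to 9.24. The B cell markers CD79A (6.49 to 7.55) and PAX5 (6.83 to 7.59) were also above the dim line in every array. Against a higher level of 7.56, set by the negative control probe sets, CD79A was below in all 4 arrays and PAX5 in 3. Of the 19 markers, only LYZ, COL1A2 and the epithelial marker EPCAM were above that level in every array. EPCAM, an epithelial adhesion protein, was the brightest of the 19, at 13.25 and 13.82 at 0 h and 12.31 and 12.35 at 24 h, and the 4 epithelial markers together summed to 9794 to 14480 at 0 h and 5113 to 5261 at 24 h. Its part in the results was not tested. Because each array pools a whole culture, fewer cells with a given RNA and less of that RNA per cell cannot be told apart.

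Some short sequence motifs, which the choice by name did not use, were in a larger share of these promoters than of those of all genes. No motif searched was in most of the factors. Windows from 250 bases before to 50 bases after the transcription start, from RefSeq on GRCh38.p14, were found for 45 of the 52 factors, 39 of them measured, and 7 motifs were searched on both strands. The E-box CACGTG, a short palindrome bound by MYC with MAX and by USF proteins, was present in 13 of the 45 windows (28.9%), compared with 7.43% of all 27305 genes with a window and 8.69% of the 14250 that also have a named probe set. CCGGAAG, the core letters of ETS family sites, was present in 18 of 45 (40.0%) against 10.7% and 14.3%. CACGCG, a related E-box variant, was in 31.1% against 11.4% and 15.1%, and CATGTG, another variant, in 2.22% against 11.2% and 8.34%. CGCATGCGC, part of an NRF1 site, was in 6.67% against 2.10% and 2.82%, and the palindromes of NRF1 and of ZBTB33, which do not overlap the E-box, were in 6.67% and 2.22% of the factors against 1.36% and 0.469% of all genes. These shares are descriptions of the letters present, with no test, and a match is not a measured binding site.

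In the first listed window of each gene, all 13 E-boxes of the factors began between 16 bases before the start and position 35 after it, 4 of them before the start. Several windows were listed for 11 factors. Other windows of DDX21 (position -31), GAR1 (31) and GNL3 (6) also held an E-box and are not counted. The stretches below run from 50 bases before to 10 bases after the transcription start, 5′ to 3′ on the gene's own strand, and show 4 factors that were lower at the unadjusted p and have the E-box (capitals) just ahead of the start. They are POLR1G at chr19:45406594-45406653 (plus strand), UTP4 at chr16:69132599-69132658 (plus strand), UTP20 at chr12:101280055-101280114 (plus strand) and RRP9 at chr3:51941895-51941954 (minus strand).
POLR1G: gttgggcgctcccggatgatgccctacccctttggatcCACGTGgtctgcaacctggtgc
UTP4: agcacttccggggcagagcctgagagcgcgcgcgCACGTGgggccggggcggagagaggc
UTP20: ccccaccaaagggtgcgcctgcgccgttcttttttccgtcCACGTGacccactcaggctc
RRP9: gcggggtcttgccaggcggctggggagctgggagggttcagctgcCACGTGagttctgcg
The 4 palindromes begin at positions -12, -16, -10 and -5, and the letters around them differ. The 4 genes serve as examples. GNL2, not printed, also holds the E-box in this stretch, at position 3. It was not lower at the unadjusted p, with a log2 fold change of -0.54. A further pair shows the ETS letters, in capitals as CCGGAAG or its reverse complement, in NOP16 at chr5:176388589-176388648 (minus strand) and RIOK1 at chr6:7389758-7389817 (plus strand), which hold 2 matches each. In NOP16 they overlap as a palindrome. The pair serves as an example, and both genes were lower at the unadjusted p. TSR1, not printed, also holds 2 matches in this stretch and had a log2 fold change of -0.31. TAF1C, also not printed, holds a match there and had 0.23.
NOP16: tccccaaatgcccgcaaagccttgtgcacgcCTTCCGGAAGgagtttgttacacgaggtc
RIOK1: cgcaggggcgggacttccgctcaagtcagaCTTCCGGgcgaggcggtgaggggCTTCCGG

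**Figure D3:**
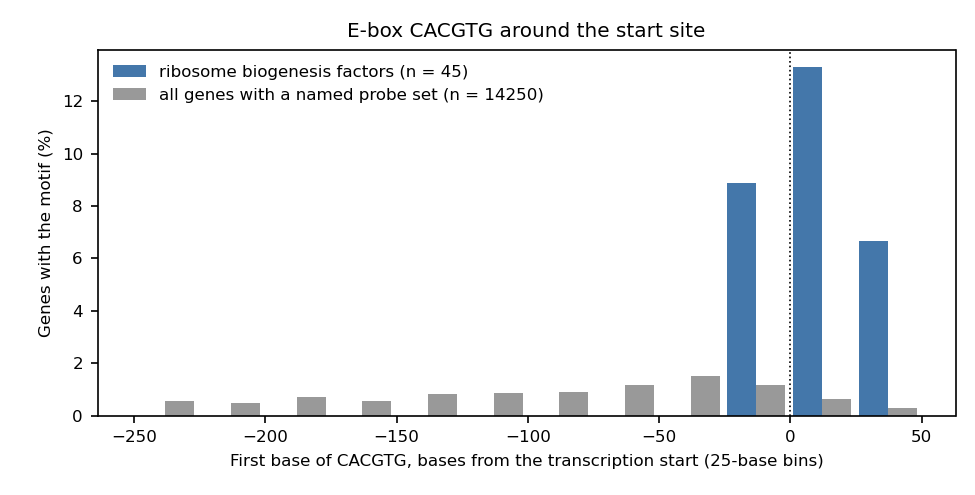
Share of genes (y axis, percent) with the E-box CACGTG in each 25-base bin (x axis, bases from the transcription start), for the 45 factors with a window (blue) and for 14250 genes with a window and a named probe set (grey). In the first listed window of each gene, the factors' matches lie in the 3 bins from 25 bases before to 50 after the start. These bins hold a match in 8.89%, 13.3% and 6.67% of the factors, where 1.19%, 0.653% and 0.288% of all genes have one.

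Factors with and without either motif had the following changes at 24 h. The 12 measured factors with an E-box in the first listed window had a median log2 fold change of -0.65, 5 of them lower at the unadjusted p. The 27 with no E-box in that window had a median of -0.57, 11 of them lower. DDX21 and GAR1, with an E-box in another window only, are among these 27. For the ETS letters the medians were -0.63 with (17 factors, 8 lower) and -0.55 without (22 factors, 8 lower). These differences were not tested.

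Among the 13 measured genes of RNA polymerase I and its initiation factors, POLR1G, POLR1F and POLR1E had the lowest values relative to 0 h. RNA polymerase I does not share these subunits with other polymerases. Nor does it share POLR1A, which had a log2 fold change of -0.03. POLR1G, which with POLR1E forms the dimer that helps the enzyme start and elongate, had levels of 9.01 and 9.18 at 0 h and of 7.36 and 7.69 at 24 h. Its level at 24 h was 2.98-fold lower, a log2 fold change of -1.58 ± 0.32 (SE) with an adjusted p of 0.059 (limma). POLR1F, a stalk subunit that contacts the initiation factor RRN3, was at 10.30 and 9.93 at 0 h and at 8.46 and 8.70 at 24 h, 2.90-fold lower (log2 fold change -1.54 ± 0.32, limma adjusted p 0.066). POLR1E was at 11.45 and 11.19, then at 10.20 and 10.14, 2.22-fold lower (log2 fold change -1.15 ± 0.31, limma adjusted p 0.14). In these 3 genes both arrays at 24 h were below both at 0 h by more than the gap between replicates. With the trend and robust variance, the limma adjusted p was 0.029 for POLR1G, 0.027 for POLR1F and 0.059 for POLR1E. One array of POLR1G at 24 h lay below 7.56, the 95th percentile of the negative control probe sets.

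POLR1H and TAF1B were lower at the unadjusted p with smaller differences. POLR1H, the subunit that helps the enzyme cleave its own transcript after a stall, had levels of 11.33 and 11.96 at 0 h and of 10.54 and 11.03 at 24 h. Its log2 fold change was -0.86 ± 0.36 (limma adjusted p 0.35) and ran from -1.17 to -0.54 when an array was left out. The replicates of POLR1H stood farther apart than the closest arrays of its 2 time points, although the time points did not overlap. TAF1B, part of the promoter factor SL1, was at 8.41 and 8.36 and then at 7.71 and 7.48, a log2 fold change of -0.79 ± 0.31 (limma adjusted p 0.31). One array at 24 h lay below the negative control level, and TAF1B was not under the unadjusted threshold in any fit that left out an array.

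The other 8 genes of the step had log2 fold changes from -0.63 to 0.23, with 95% intervals reaching from -1.48 to 1.12. POLR1A, the largest subunit and part of the active site, overlapped between time points at 11.60 and 11.52 against 11.95 and 11.10 (log2 fold change -0.03). POLR1B, the second-largest subunit, gave -0.63 with 3 of its 4 arrays below the negative control level. POLR1C and POLR1D, which are also subunits of RNA polymerase III, gave -0.46 and -0.57. RRN3, which brings the polymerase to the promoter, gave -0.15 and overlapped, and UBTF, which keeps the ribosomal genes open, gave -0.43. Of the SL1 subunits beside TAF1B, TAF1A gave -0.61 and TAF1C, the only factor with a value above 0, gave 0.23 with overlapping arrays at 7.34 and 6.36 against 7.31 and 6.86, all below the negative control level. Whether subunits of one complex differ from each other in their change was not tested.

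All 6 measured snoRNP proteins had both arrays at 24 h below both at 0 h, and 3 of them were lower at the unadjusted p. Over all probe sets these shares were 24.9% and 6.62%. The step had a median log2 fold change of -0.63. NOP58, a core protein of the box C/D particles that guide methylation, was at 13.96 and 13.79 at 0 h and at 12.96 and 12.88 at 24 h. The log2 fold change of NOP58 was -0.96 ± 0.31, 1.94-fold lower, with a limma adjusted p of 0.22, which was 0.047 with the trend and robust variance. GAR1, a core protein of the box H/ACA particles that guide pseudouridylation, was at 12.90 and 12.94 and then at 12.14 and 12.05 (log2 fold change -0.83 ± 0.31, limma adjusted p 0.28). RRP9, the protein of the U3 snoRNP that starts small subunit processing, was at 8.62 and 8.56 and then at 7.74 and 7.93 (log2 fold change -0.76 ± 0.31, limma adjusted p 0.34), and like TAF1B it was not under the unadjusted threshold without any 1 of the arrays.

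The other 3 snoRNP proteins had log2 fold changes from -0.50 to -0.39 with intervals that included 0, reaching from -1.19 to 0.30. NOLC1, a chaperone that moves snoRNPs to the nucleolus, was at 13.84 and 13.81 at 0 h and at 13.34 and 13.31 at 24 h (-0.50 ± 0.31). Its replicates lay close together (SD 0.022 and 0.021), and the standard error reflects the spread that limma borrows from all probe sets. NHP2, of the H/ACA core, was at 10.76 and 10.90 and then at 10.31 and 10.41 (-0.47 ± 0.31). FBL, the methyltransferase of the C/D particles, gave -0.39.

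The 4 nucleolar proteins that act at several steps had a median log2 fold change of -0.10, against -0.06 over all probe sets. None was lower at the unadjusted p, and the 95% intervals reached from -1.05 to 0.74, and the median of all 45 factors, -0.61, lies inside each of the 4. NCL (nucleolin, which binds the precursor RNA) was at 13.82 and 13.56 at 0 h and at 13.69 and 13.46 at 24 h. NPM1 (nucleophosmin, a chaperone of the outer nucleolus) was at 15.37 and 15.80 and then at 15.88 and 15.16, and NPM3, of the same family, was at 8.96 and 9.48 and then at 9.0 and 9.29. The time points of these 3 genes overlapped, with log2 fold changes of -0.12 ± 0.32, -0.07 ± 0.36 and -0.07 ± 0.34. NPM1 has many near-identical pseudogenes in the genome, and whether its probes separate them is not given in the sources used here. DDX21, an RNA helicase that works both in polymerase I transcription and in processing, was at 15.06 and 15.15 at 0 h and at 14.75 in both arrays at 24 h, a log2 fold change of -0.36 ± 0.31 without overlap. The difference between this group and the other steps was not tested.

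Small subunit factors had the lowest median of the 5 groups, -0.84. At the unadjusted p, 7 of the 12 measured were lower, against 6.62% of all probe sets. Both arrays at 24 h lay below both at 0 h for 11 of the 12, against 24.9% of all probe sets. DDX10, a helicase of the early processome, was at 10.76 and 10.63 at 0 h and at 9.55 and 9.80 at 24 h, 2.02-fold lower (log2 fold change -1.02 ± 0.31, limma adjusted p 0.19). RIOK1, a kinase that acts on the nearly finished subunit in the cytoplasm, was at 12.62 and 12.35 and then at 11.64 and 11.31 (-1.01 ± 0.32, limma adjusted p 0.21). UTP4, one of the first proteins to bind the precursor, was at 14.98 and 14.69 and then at 13.84 and 13.94 (-0.95 ± 0.31). Its limma adjusted p was 0.23, and 0.037 with the trend and robust variance. LTV1, which leaves the subunit late in its maturation, was at 13.86 and 13.99 and then at 12.83 and 13.17 (-0.92 ± 0.32, limma adjusted p 0.25). For all 4 the gap between time points exceeded the gap between replicates.

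UTP20, a large scaffold of the processome, had the largest fitted difference of the step but rested on 1 array. It was at 11.50 and 10.36 at 0 h and at 9.81 and 9.71 at 24 h, a log2 fold change of -1.17 ± 0.40 (limma adjusted p 0.25). Without replicate 1 of 0 h the value was -0.60 and without replicate 2 of 0 h it was -1.74. The other 2 factors lower at the unadjusted p were NOB1, the endonuclease that makes the final cut of the small subunit RNA, with a log2 fold change of -0.86, and HEATR1, an early processome scaffold, with -0.83. Early and late factors were thus both among the 7. The remaining 5 had values from -0.71 (NOP14) to -0.18 (RRP12), with BYSL at -0.42, RIOK2 at -0.41 and TSR1 at -0.31, and their intervals reached from -1.43 to 0.63. RRP12 was close to the dim line and below the negative control level in all 4 arrays, at 5.76 to 6.57.

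Among the 10 measured large subunit factors, RRS1, NOP16, NIP7 and WDR12 had log2 fold changes of -1.02 or lower whichever array was left out. The 10 had a median log2 fold change of -0.67. Of these, 5 were lower at the unadjusted p, against 6.62% of all probe sets. Both arrays at 24 h lay below both at 0 h for 8, against 24.9% of all probe sets. RRS1, which helps bring the 5S RNA and its proteins into the particle, was at 10.46 and 10.36 at 0 h and at 9.03 and 8.81 at 24 h, 2.80-fold lower (log2 fold change -1.49 ± 0.31, limma adjusted p 0.065). NOP16, a nucleolar assembly factor, was at 11.86 in both arrays at 0 h and at 10.72 and 10.10 at 24 h, 2.74-fold lower (-1.45 ± 0.34, limma adjusted p 0.091). NIP7, which is needed for processing in the nucleolus, was at 14.17 and 14.32 and then at 12.97 and 13.20, 2.23-fold lower (-1.16 ± 0.31, limma adjusted p 0.14). WDR12, a subunit of the PeBoW complex with PES1 and BOP1, was at 11.94 and 12.23 and then at 11.01 and 10.82, 2.24-fold lower (-1.17 ± 0.32, limma adjusted p 0.14). In each of these 4 the lowest array at 0 h was above the highest at 24 h by more than either replicate gap, and with the trend and robust variance their limma adjusted p ran from 0.018 (NIP7) to 0.046 (WDR12).

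RRP1B, a nucleolar protein related to the assembly factor RRP1, was the fifth, at 12.11 and 11.76 at 0 h and 11.37 and 11.02 at 24 h (log2 fold change -0.74 ± 0.33, limma adjusted p 0.38), with the 2 time points of RRP1B separated by about the gap between its replicates. The other 5 ran from -0.59 to -0.24 with intervals from -1.30 to 0.50: MRTO4, a placeholder for a ribosomal stalk protein, at -0.59, the GTPase GNL2 at -0.54, WDR74 at -0.46, the methyltransferase NOP2 at -0.45 (below the negative control level in all 4 arrays) and PES1 at -0.24. The arrays of PES1 overlapped, at 11.21 and 11.10 against 11.16 and 10.68, beside the separation of its partner WDR12, and the difference between the partners was not tested.

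Genes of the same processes outside the 52 were also examined, in lists that were likewise chosen with earlier results of these data known. Of 114 further processing genes listed, 108 were measured. At the unadjusted p 38 of these (35.2%) were lower and 0 higher, against 6.62% and 6.28% of all probe sets. The median log2 fold change was -0.52, with 94 values below 0 and 14 above, where all probe sets had 11511 below and 9382 above. Both arrays at 24 h lay below both at 0 h for 66, against 24.9% of all probe sets. They lay above both for 2, against 3925 of the 20893 probe sets. None of the 108 passed the adjusted threshold. With the trend and robust variance 9 passed as lower, against 0.761% of all probe sets. By list, 3 of 10 snoRNP genes were lower (median -0.58), 13 of 42 small subunit genes (median -0.52), 15 of 43 large subunit genes (median -0.44) and 7 of 13 genes of the RNA exosome and trimming (median -0.79). Among the small subunit genes UTP14A, which regulates the helicase that takes U3 off the precursor, had -1.61 ± 0.38 and NOL10, a processome protein, had -1.34 ± 0.32. Of the large subunit genes NIFK, a nucleolar protein that binds the Ki-67 antigen, had -1.30 ± 0.31 and PAK1IP1 had -1.19 ± 0.31. In the exosome, which degrades and trims RNA from its end, the nuclease DIS3 had -1.23 ± 0.34 and the ring subunit EXOSC5 had -1.35 ± 0.42, and among the snoRNP genes SNU13, which binds the C/D motif, had -0.90 ± 0.33 and NUFIP1, a snoRNP assembly factor, -0.85 ± 0.33. All 8 of these named genes were lower at the unadjusted p, and their limma adjusted p ran from 0.096 (UTP14A) to 0.31 (NUFIP1).

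Other polymerases and the ribosomal proteins themselves gave smaller medians. The counts below stand beside 6.62% of all probe sets lower at the unadjusted p. Of the subunits that RNA polymerases I, II and III share, 1 of 4 measured was lower at the unadjusted p (POLR2H, -0.83 ± 0.32), with a median of -0.44. The subunits of RNA polymerase III alone had a median of -0.40 with 3 of 10 lower, among them POLR3G at -1.42 ± 0.42 and POLR3C at -0.93 ± 0.32, and those of RNA polymerase II alone a median of -0.07 with 1 of 7 lower (POLR2I, -0.80 ± 0.34). Cytosolic ribosomal proteins, of which 46 of 79 listed were measured, had a median of -0.02 over a range from -0.26 to 0.33, with 0 lower and 0 higher at the unadjusted p in limma and 0 after adjustment with either variance model. Their values lay between 12.04 and 17.28, in the upper part of the range of the arrays, and whether the probes separate them from their many pseudogenes is not given in the sources used here. RPS27 (0.33 ± 0.36), RPS26 (-0.20 ± 0.32), RPL19 (0.29 ± 0.33) and RPLP1 (0.26 ± 0.31) had the smallest p in the 2 subunits, and all 4 intervals included 0. No test compared these lists with the 52 factors.

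**Figure D4:**
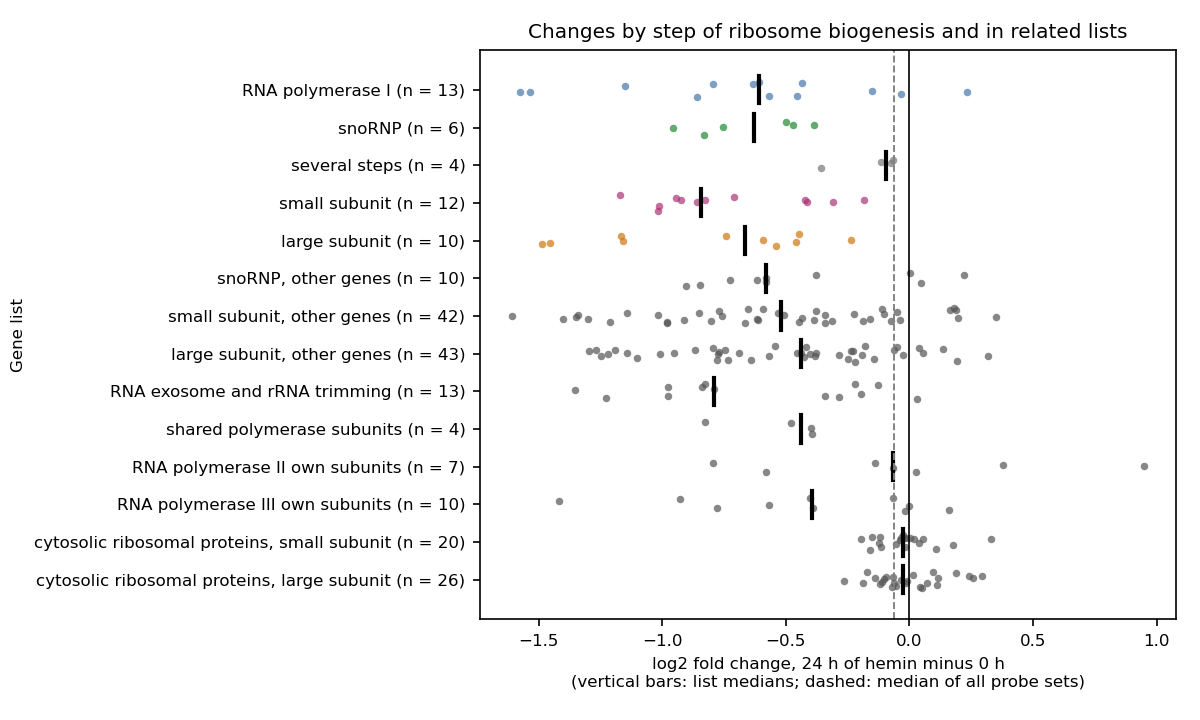
Log2 fold change, 24 h of hemin minus 0 h (x axis), of each measured gene (points) in the 5 groups of factors (colour) and in 9 related lists (grey), with list medians as vertical bars and the median of all probe sets dashed. The medians run from -0.84 in the small subunit factors to -0.02 in the ribosomal proteins, whose 46 points lie between -0.26 and 0.33.

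The promoters of the related genes carried the same letters to differing degrees. The E-box was in 30.3% of 99 other processing genes with a window and in 4.76% of 63 cytosolic ribosomal protein genes, and CCGGAAG was in 39.4% and 33.3% of them. The processing genes thus had a share of E-boxes close to that of the 52 factors, and the ribosomal protein genes a share below that of all genes, without a test.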

How the data were processed

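The deposited table holds 1 log2 value for each probe set in each array, made by the authors. By their methods, the arrays were processed with RMA in Affymetrix Expression Console (background correction, log2, quantile normalization) and tested by ANOVA in Partek. Software versions and the build behind the array were not given in the sources used here. From 24351 deposited rows, 2903 array controls and 555 unmapped transcripts were left out, and 20893 probe sets were tested. Symbols came from GEO's platform annotation, with 17705 probe sets named by 1 symbol and 3188 unnamed. Samples were grouped by the labels. The test was limma 3.58.1 in R 4.3.3 (24 h minus 0 h, two-sided, all 4 arrays, no covariate, prior of 7.47 degrees of freedom), with p-values adjusted by Benjamini-Hochberg across the 20893 probe sets, a threshold of 0.05, and the test checked on simulated data. An array has no read depth. Having 2 arrays per time point limits the precision.

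The factors, their groups and all other lists were chosen with earlier results of these data known. In each group the 5 factors with the smallest p, and any called by limma under either variance model, are given with every array, and the others by fold change and range. In the other lists up to 2 genes with the smallest p are named. Promoter windows are RefSeq's on GRCh38.p14, the first listed for each gene. Alternatives were another quantile normalization, median centring, filters at the dim line and at the negative controls, 1 probe set per gene, trend and robust variance, each array left out in turn, a block for the replicate number, weights on arrays, other thresholds and the methods' ANOVA.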

Additional observations from a re-analysis of the deposited data

How the results depend on the processing

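The median log2 fold change of the factors stayed between -0.71 and -0.57 under every alternative run: it was -0.71 over the 41 factors above the negative controls and -0.69 to -0.57 with 1 array left out. The count of factors lower at the unadjusted p was 20, and 10 to 16 with 1 array left out. The count past the adjusted threshold, 0, became 1 with median centring, 3 above the dim line, 7 above the negative controls, 3 with 1 probe set per gene, 8 with trend and robust variance, 4 at a threshold of 0.1, 21 with the methods' ANOVA unadjusted, and 0 to 1 with 1 array left out. With the replicate number as a block (replicate block) it was 3: POLR1G, POLR1F and RRS1. The labels share only a number (correlation of deviations -0.00322 over all probe sets and 0.275 over the factors), and the block moved the count over all probe sets from 197 to 429. That count was 495 above the negative controls, 546 with trend and robust variance, 1930 with the methods' ANOVA unadjusted and 0 adjusted, 77 and 418 at thresholds of 0.01 and 0.1, and 27 to 392 with 1 array left out. With 1 array left out the sign turned in 8 of the 45 factors, and 37 were below 0 in every such fit. The 8 were NCL (0.0164 without replicate 1 of 0 h, range -0.25 to 0.0164), NPM3 (0.19 without replicate 2 of 0 h and 0.07 without replicate 1 of 24 h, range -0.34 to 0.19), NPM1 (0.15 without replicate 2 of 0 h and 0.29 without replicate 2 of 24 h, range -0.42 to 0.29), POLR1A (-0.46 to 0.39), RRN3 (-0.43 to 0.12), TAF1C (-0.26 to 0.72), RRP12 (-0.59 to 0.22) and PES1 (-0.48 to 0.0049). With 1 array left out, the lone array is assumed to vary like the other time point. Where the cause of a change in a count is not fixed by fewer arrays or probe sets, the cause was not tested.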

Other observations

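MYC, a transcription factor whose dimer with MAX binds the E-box, was looked at after the values of the ribosome biogenesis factors had been seen. Its level was 13.34 and 13.27 at 0 h and 13.28 and 12.87 at 24 h. The time points differed by -0.23 ± 0.32 on the log2 scale (95% interval -0.95 to 0.49, limma adjusted p 0.81), one array at 24 h lying between the 2 arrays at 0 h. A fall of the size seen in the factors at the median lies inside that interval, and these arrays report RNA, not protein.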
